A study of Mus musculus with 4 samples.

Results

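Genes of microbial sensing and NF-kB feedback were followed on arrays of cardiac endothelium, the inner cell layer of the heart's blood vessels. They were Lbp, Tlr2, Tlr3, Tnip1, Tnfaip3 and Birc3, taken as the oligonucleotides whose platform annotation carries exactly one of these symbols. Each of the 6 genes had 1 oligonucleotide printed as 2 spots, so they made up 12 of the 24344 spots with a single gene symbol and 6 of 11138 genes. The genes were picked with their ratios on these arrays in view. All values below are therefore a description of the 48 ratios (12 spots on 4 arrays), and no test is given. Tlr2, Tnip1 and Lbp were at least 2-fold above saline on both arrays of each time, Tlr3 and Birc3 were high at 4 h and mixed at 24 h, and Tnfaip3 was below saline at 24 h.

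Mice received LPS, the lipopolysaccharide of Gram-negative bacteria, or saline by the intraperitoneal route, and amplified RNA of cardiac endothelium of both was hybridized together at 24 h and at 4 h. Each time had 2 arrays with 2 colours, one with LPS RNA in Cy5 and one with the dyes reversed. Strain, genotype, sex, age, LPS dose, number of animals and isolation method are not named in the labels, and neither is whether the reversed array held RNA of other animals, so the 2 arrays of a time counted as 1 replicate. The deposited table holds ratios without intensities, so endothelial identity of the RNA could not be checked from marker levels, and fewer cells of a type could not be told apart from less RNA per cell. 

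Values are log2 LPS over saline, with the sign of the LPS-in-Cy3 array turned. Values of single spots are otherwise as deposited, while values of a gene are means over its spots, less the array's own median of all gene values. The table does not say which dye is on top. Over oligonucleotides whose 2 spots lay within 0.5 log2 units on both arrays of a time, without ratios of exactly 1 and without the 6 genes, the deposited ratios of the dye-reversed arrays correlated at -0.50 at 24 h (n = 3664) and -0.37 at 4 h (n = 5020). These oligonucleotides share the arrays' RNA and dyes, and no p is given. Over all spots the correlations were only -0.06 at both times. These correlations bear only on whether the table was already turned, since they are the same with either dye on top. The dye of the LPS RNA comes from the labels. That Cy5 is on top is an assumption, and the direction is not settled. Were the table Cy3 over Cy5, every sign below would turn, and were it already turned, genes described as shifted the same way would lie on opposite sides on the 2 arrays. A gene was called higher or lower where the 2 arrays of a time were each 1 log2 unit (2-fold) or more from 0 on the same side, and ± is the SD of the 2 arrays (n = 2 arrays), which does not cover the spread between animals.

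LPS-binding protein, encoded by Lbp, passes LPS to CD14 and on to the receptor complex of Toll-like receptor 4 and MD-2. Toll-like receptors signal through adaptors to kinases that free NF-kB from its inhibitors, and NF-kB then switches on inflammatory genes together with genes that dampen the pathway. Genes of this dampening kind are Tnfaip3, which encodes the ubiquitin-editing enzyme A20, and Tnip1, whose product binds ubiquitin chains and A20. Birc3, listed with them here, encodes the ubiquitin ligase cIAP2 of TNF receptor complexes. Vascular endothelium is a direct target of LPS in sepsis, where this pathway drives adhesion molecules and chemokines.

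The promoters are shown because NF-kB is the factor on which the feedback genes converge. RefSeq windows of 250 bases before to 50 bases after a transcription start (GRCm38.p6) matched 5 of the 6 genes, all but Lbp, with 2 windows for Tnfaip3. Of these 6 windows, 4 held the NF-kB consensus on either strand, which 4.51% of 32841 windows of that length hold. The consensus was GGGRNWYYCC, where R is A or G, N any base, W A or T and Y C or T. The genes were listed as genes of this pathway, so nothing is read from this difference. Capitals mark bases within a consensus match, and overlapping matches run together. All 4 windows are on the minus strand, printed 5′ to 3′: chr3:83841559-83841858 (Tlr2), chr8:45410331-45410630 (Tlr3), chr11:54962891-54963190 (Tnip1) and chr10:19015361-19015660 (the first of 2 windows of Tnfaip3).
Tlr2: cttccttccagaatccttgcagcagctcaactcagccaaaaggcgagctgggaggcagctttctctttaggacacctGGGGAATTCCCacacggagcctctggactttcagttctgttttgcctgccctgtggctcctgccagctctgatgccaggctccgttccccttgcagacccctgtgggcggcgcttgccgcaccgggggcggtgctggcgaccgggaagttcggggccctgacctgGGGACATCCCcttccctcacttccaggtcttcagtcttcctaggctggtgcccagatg
Tlr3: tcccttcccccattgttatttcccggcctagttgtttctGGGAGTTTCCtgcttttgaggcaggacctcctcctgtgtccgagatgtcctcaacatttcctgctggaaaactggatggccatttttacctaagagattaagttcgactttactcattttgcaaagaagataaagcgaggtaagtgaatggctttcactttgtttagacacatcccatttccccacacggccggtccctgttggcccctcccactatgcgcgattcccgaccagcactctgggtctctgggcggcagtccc
Tnip1: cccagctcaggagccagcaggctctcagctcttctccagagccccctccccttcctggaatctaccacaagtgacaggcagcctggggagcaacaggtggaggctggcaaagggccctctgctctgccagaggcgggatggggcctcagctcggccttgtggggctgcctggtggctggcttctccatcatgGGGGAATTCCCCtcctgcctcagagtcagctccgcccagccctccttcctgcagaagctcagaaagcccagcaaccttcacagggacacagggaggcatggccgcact
Tnfaip3: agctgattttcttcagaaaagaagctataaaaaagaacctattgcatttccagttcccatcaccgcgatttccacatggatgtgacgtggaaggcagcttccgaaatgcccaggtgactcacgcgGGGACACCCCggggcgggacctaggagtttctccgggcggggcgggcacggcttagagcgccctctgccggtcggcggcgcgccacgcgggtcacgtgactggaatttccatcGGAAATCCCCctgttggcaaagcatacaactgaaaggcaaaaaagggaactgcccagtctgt
Tlr2 and Tnip1 both held the palindrome GGGAATTCCC, picked out after the windows were read and present in 13 of the 32841 windows (0.0396%). The palindrome was chosen as the one found in the largest number of the 6 genes, so nothing is read from its rarity. In Tlr2 it lay within the run GGGGAATTCCC, 173 to 163 bases before the start, and in Tnip1 within GGGGAATTCCCC, 58 to 47 bases before it. Tlr2 held a second match, GGGACATCCC, across its start. Tnfaip3 held GGAAATCCCC, the consensus on the other strand, 12 to 3 bases before its start and GGGACACCCC further upstream, and Tlr3 held GGGAGTTTCC 211 to 202 bases before its start. The Birc3 window and the second Tnfaip3 window held no such letters, which concerns only these windows. A match is a run of letters and not a measured binding site.

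At 24 h, 3 of the 6 genes were called higher, Tlr2, Tnip1 and Lbp, and 1, Tnfaip3, was called lower. At 4 h, 5 of the 6 were called higher and 0 lower, Tnfaip3 being the exception. Over all 11138 genes, 3.48% were called higher and 3.52% lower at 24 h, and 2.25% higher and 0.997% lower at 4 h. At least 2-fold but on opposite sides on the 2 arrays were 3.69% of genes at 24 h and 1.42% at 4 h. Because the genes were chosen from these ratios, nothing is read from their count against these shares.

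**Figure D1:**
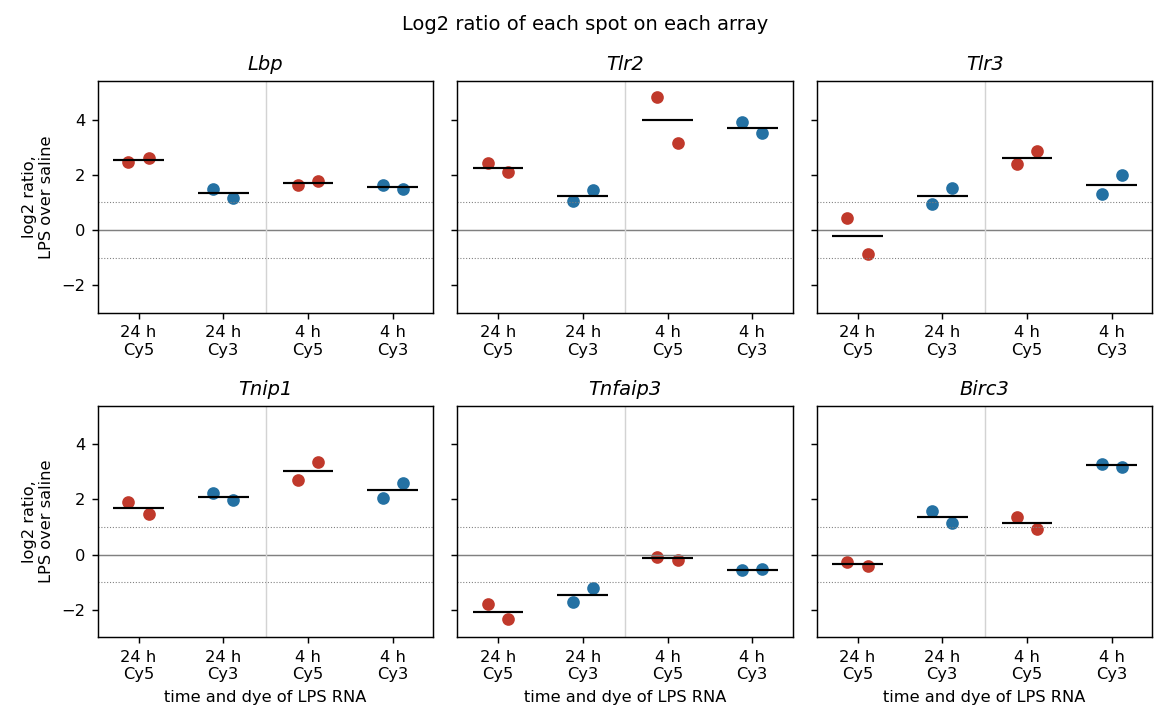
Log2 LPS over saline of each spot (y axis, not centred) on each of the 4 arrays (x axis, time and dye of the LPS RNA), 1 panel per gene, with red points for LPS in Cy5, blue for LPS in Cy3, black bars for the mean of the 2 spots and dotted lines at 2-fold. All 8 points of Lbp, Tlr2 and Tnip1 lie above 1, all 8 of Tnfaip3 lie below 0, and Tlr3 and Birc3 reach below 0 on the 24 h array with LPS in Cy5.

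The genes that take part in recognition come first. Lbp read 2.47 and 2.61 in its 2 spots at 24 h with LPS in Cy5 and 1.50 and 1.16 with LPS in Cy3. At 4 h it read 1.62 and 1.77 with LPS in Cy5 and 1.64 and 1.50 with LPS in Cy3. All 8 spot values were thus more than 2-fold above saline, and the times overlapped. The gene mean was 1.91 ± 0.92 (3.77-fold) at 24 h and 1.64 ± 0.10 (3.11-fold) at 4 h. The 2 arrays of 4 h lay within 0.14 log2 units of each other, while at 24 h the array with LPS in Cy5 was higher by 1.30. Among all genes Lbp ranked 131 and 1260 of 11138 from the top on the arrays of 24 h, with LPS in Cy5 and Cy3, and 661 and 342 on those of 4 h.

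Tlr2, whose product recognizes bacterial lipoproteins in pairs with TLR1 or TLR6, had the highest mean of the 6 genes at 4 h. Its spots read 2.44 and 2.08 at 24 h with LPS in Cy5 and 1.05 and 1.44 with LPS in Cy3. At 4 h they read 4.82 and 3.17 with LPS in Cy5 and 3.93 and 3.50 with LPS in Cy3. Every spot of 4 h lay above every spot of 24 h, and the spots with the widest gap, 1.66 log2 units, were both above 3 log2 units. The mean was 1.73 ± 0.78 (3.33-fold) at 24 h and 3.86 ± 0.21 (14.5-fold) at 4 h. With LPS in Cy5 and Cy3 it held ranks 174 and 1388 of 11138 at 24 h, and ranks 117 and 21 at 4 h. The call at 24 h was close to the limit: the array with LPS in Cy3 stood at 1.18, and it came to 0.94 with arrays scaled to one spread and to 0.94 after quantile normalization, which ended the call.

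Tlr3, the endosomal receptor of double-stranded RNA, was high at 4 h and not called at 24 h. At 24 h its spots read 0.42 and -0.89 with LPS in Cy5 and 0.93 and 1.54 with LPS in Cy3. At 4 h they read 2.38 and 2.85 with LPS in Cy5 and 1.30 and 1.98 with LPS in Cy3. The 24 h array with LPS in Cy5 had spots on both sides of 0, 1.31 log2 units apart, and the lower 4 h spot with LPS in Cy3 lay below the highest spot of 24 h. The mean was 0.48 ± 0.97 (1.39-fold) at 24 h and 2.13 ± 0.70 (4.39-fold) at 4 h. From the top, Tlr3 ranked 6692 and 1416 of 11138 at 24 h with LPS in Cy5 and Cy3, and 308 and 313 at 4 h.

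The feedback genes differed among themselves. Tnip1 read 1.92 and 1.46 in its spots at 24 h with LPS in Cy5 and 2.22 and 1.96 with LPS in Cy3. At 4 h it read 2.71 and 3.37 with LPS in Cy5 and 2.06 and 2.59 with LPS in Cy3. All 8 spots were more than 2-fold above saline, and the lowest spot of 4 h lay below the highest of 24 h. The mean was 1.87 ± 0.22 (3.66-fold) at 24 h and 2.69 ± 0.51 (6.44-fold) at 4 h. Of the 3 genes called higher at both times, Tnip1 had the 2 arrays of 24 h closest together, 0.32 log2 units apart.

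Unlike its partner Tnip1, Tnfaip3 was called lower than saline at 24 h. Its spots read -1.80 and -2.34 at 24 h with LPS in Cy5 and -1.73 and -1.23 with LPS in Cy3. At 4 h they read -0.07 and -0.19 with LPS in Cy5 and -0.58 and -0.52 with LPS in Cy3. All 8 spots lay below 0 and the spots of the times did not overlap. The mean was -1.80 ± 0.36 at 24 h, 3.47-fold lower in LPS than in saline, and -0.33 ± 0.30 at 4 h, a change of 1.26-fold that was not called. Ranked from the lowest ratio, Tnfaip3 stood at 635 and 658 of 11138 on the arrays of 24 h. A single oligonucleotide carries this value, and its sequence is not used here.

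Birc3 rested on arrays that differed more than those of any other of the 6 genes. At 24 h its spots read -0.26 and -0.41 with LPS in Cy5 and 1.59 and 1.14 with LPS in Cy3. At 4 h they read 1.37 and 0.91 with LPS in Cy5 and 3.29 and 3.17 with LPS in Cy3. At both times the array with LPS in Cy3 was the higher one, by 1.62 log2 units at 24 h and by 2.08 at 4 h, and whether the dye had a part in this was not tested. The mean was 0.49 ± 1.14 (1.41-fold) at 24 h and 2.19 ± 1.47 (4.57-fold) at 4 h. The array with LPS in Cy5 passed the 2-fold limit at 4 h by a narrow margin, at 1.15, and 1 of its spots did not. The gene's name is also open to confusion, since the RefSeq table lists Birc2, a paralog, as a synonym of Birc3 and Birc3 as a synonym of Birc2. The gene-level ratio of Birc2 was -0.30 and -0.34 at 24 h with LPS in Cy5 and Cy3, and 1.93 and 0.62 at 4 h, where Birc3 was the higher with LPS in Cy3.

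**Figure D2:**
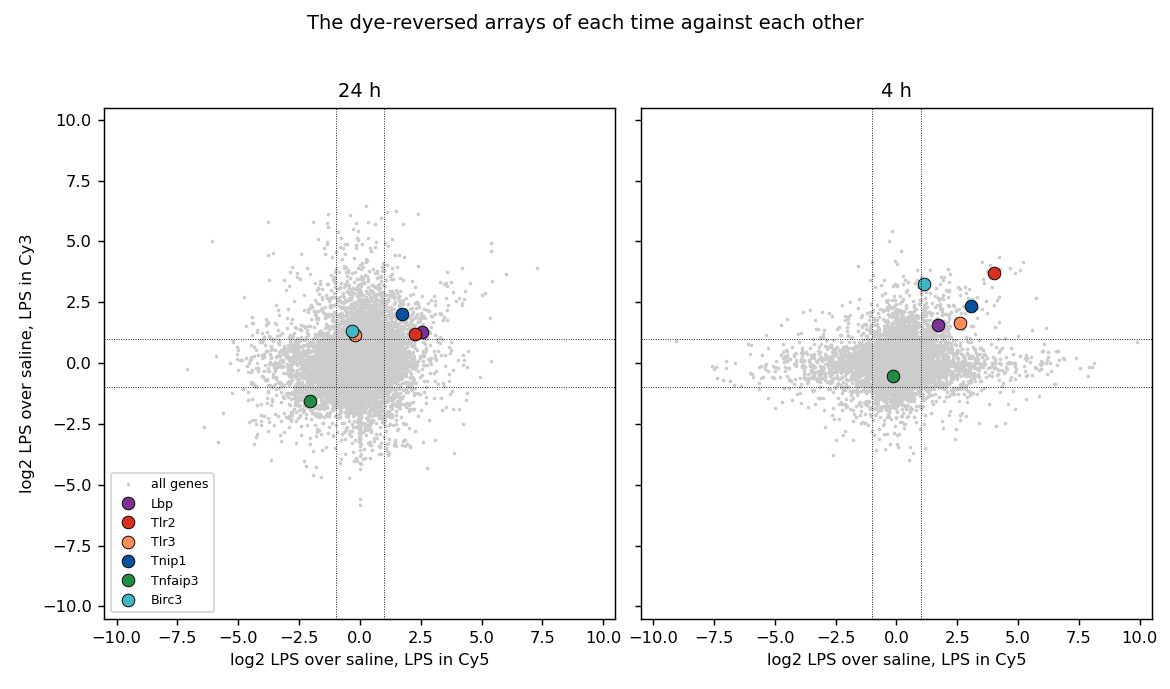
Gene-level log2 LPS over saline with LPS in Cy5 (x axis) against LPS in Cy3 (y axis) at 24 h (left) and 4 h (right), with grey points for the 11138 genes, coloured points for the 6 genes and dotted lines at 2-fold. At 4 h 5 genes lie in the upper right field beyond both lines; at 24 h Tlr2, Lbp and Tnip1 do, Tnfaip3 lies in the lower left field, and Tlr3 and Birc3 lie left of 0 with LPS in Cy5.

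A stricter rule asked for every spot to be at least 2-fold on the same side on both arrays. Tlr2, Tnip1 and Lbp met it on the higher side and Tnfaip3 on the lower side at 24 h, where 1.92% and 1.68% of all genes did. Tlr2, Tlr3, Tnip1 and Lbp met it on the higher side at 4 h, where 1.25% of all genes did, and Birc3 did not. None met it on the lower side at 4 h, where 0.332% of all genes did. In all, 15 of 24 spot values were at least 2-fold above saline and 4 at least 2-fold below it at 24 h. At 4 h 19 of 24 were at least 2-fold above saline. The share over all spots was not counted and the genes were chosen from these ratios, so nothing is read from these numbers. These counts use spots that were not centred. Centring put the lower spot of Tlr2 at 24 h with LPS in Cy3 at 0.99, so that Tlr2 then missed the rule at 24 h, while the other results of the 6 genes under the rule did not change. The 2 spots of a gene lay a median of 0.44 log2 units apart over the 24 pairs of the 6 genes, against 0.39 over all named oligonucleotides. None of the 48 values was a ratio of exactly 1, a value that 10.2% to 13.4% of the spots of an array carried.

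Between the times, 5 of the 6 genes had a lower log2 ratio at 24 h than at 4 h, and Lbp did not. The share of all genes with a lower mean at 24 h was not counted. Of the 251 genes called higher at 4 h over the whole array, 88.4% had a lower mean at 24 h, so nothing is read from the 5 of 6. Both arrays of 24 h lay below both of 4 h, with means at least 1 log2 unit apart, in Tlr2 (difference of -2.13), Tlr3 (-1.66) and Tnfaip3 (-1.46). By the same rule 10.3% of all genes were lower at 24 h and 9.43% higher, so that such a separation was common on these arrays. The difference of Tnfaip3 was -0.94 with arrays scaled to one spread, short of 1 log2 unit. Birc3 differed by -1.70, but its arrays overlapped, since the array of 24 h with LPS in Cy3 at 1.30 was above that of 4 h with LPS in Cy5 at 1.15. With arrays scaled to one spread Birc3 differed by -2.61 and after quantile normalization by -2.30, and its times then separated. Tnip1 differed by -0.82, short of 1 log2 unit, but by -1.93 with arrays scaled to one spread, and it then separated, as it did after quantile normalization. Lbp differed by 0.27, less than the SD of 0.92 between its arrays of 24 h, and by -0.60 with arrays scaled to one spread, so its order of times is not settled. 

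Tlr2, Tnip1 and Lbp were called higher at both times, as were 0.485% of all genes. Of the 251 genes called higher at 4 h over the whole array, 54 were called higher at 24 h too and 222 had a lower mean at 24 h, with a median difference of -1.32. A gene called at 4 h had to be high there. The difference of Tlr2, -2.13, lay below this median, and those of Tnip1, -0.82, and Lbp, 0.27, lay above it.

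The other genes of the pathway held 1 call at each time. Of 68 listed receptors, adaptors, kinases, NF-kB subunits, IkB proteins and feedback or ubiquitin-editing genes, 48 were measured. Of these, 1 was called higher and 0 lower at each time (2.08% of the 48, against 3.48% of all genes higher at 24 h and 2.25% at 4 h). At these shares lists of this size hold few calls or none, so nothing is read from this count or from the shorter lists that follow. The median over the 48 genes was 0.11 at 24 h and 0.15 at 4 h, against -0.02 and -0.02 over all genes. The called gene of 24 h was Tab2, an adaptor of the kinase TAK1, at 1.26 with LPS in Cy5 and 2.80 with LPS in Cy3, not in every spot. The called gene of 4 h was Rela, the p65 subunit of NF-kB, at 1.37 with LPS in Cy5 and 1.77 with LPS in Cy3 and with every spot at least 2-fold. Rela stood at -0.13 and -0.32 at 24 h.

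The 9 other receptors and LPS transfer genes measured held 0 calls. Tlr4, the signalling receptor of LPS, stood at 0.31 and -0.06 at 24 h with LPS in Cy5 and Cy3 and at -0.40 and -0.06 at 4 h, and 1 of its 2 oligonucleotides carried ratios of exactly 1 in most spots. The -0.40 rests on 1 spot of that oligonucleotide, at -2.20, while the spots of the other read -0.06 and 0.63 on the same array. Cd14, which hands LPS to TLR4, stood at -0.03 and -0.70 at 24 h and at 0.15 and 0.58 at 4 h. Ly96, which encodes MD-2, stood at 1.37 and -0.16 at 24 h and at 0.53 and 0.60 at 4 h. None of these 3 genes reached 2-fold on both arrays of a time. Myd88, the adaptor shared by most Toll-like receptors, was at -0.10 and 0.36 at 24 h and at 0.54 and 0.45 at 4 h.

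The 5 IkB proteins measured held no called gene, and their median was -0.64 at 24 h and 0.73 at 4 h. Nfkbia, the inhibitor that is itself a rapid NF-kB target, had arrays on both sides of 0, at 0.02 and -1.29 at 24 h and at 2.01 and -0.29 at 4 h with LPS in Cy5 and Cy3. Of the 12 other feedback genes, with a median of 0.03 at 24 h and 0.39 at 4 h, none was called. Tnip2, which encodes a second A20-binding protein, stood at -1.63 and -0.57 at 24 h and at -0.48 and 1.12 at 4 h. Its arrays of 24 h were both below 0, unlike those of Tnip1, which were both above 1.

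**Figure D3:**
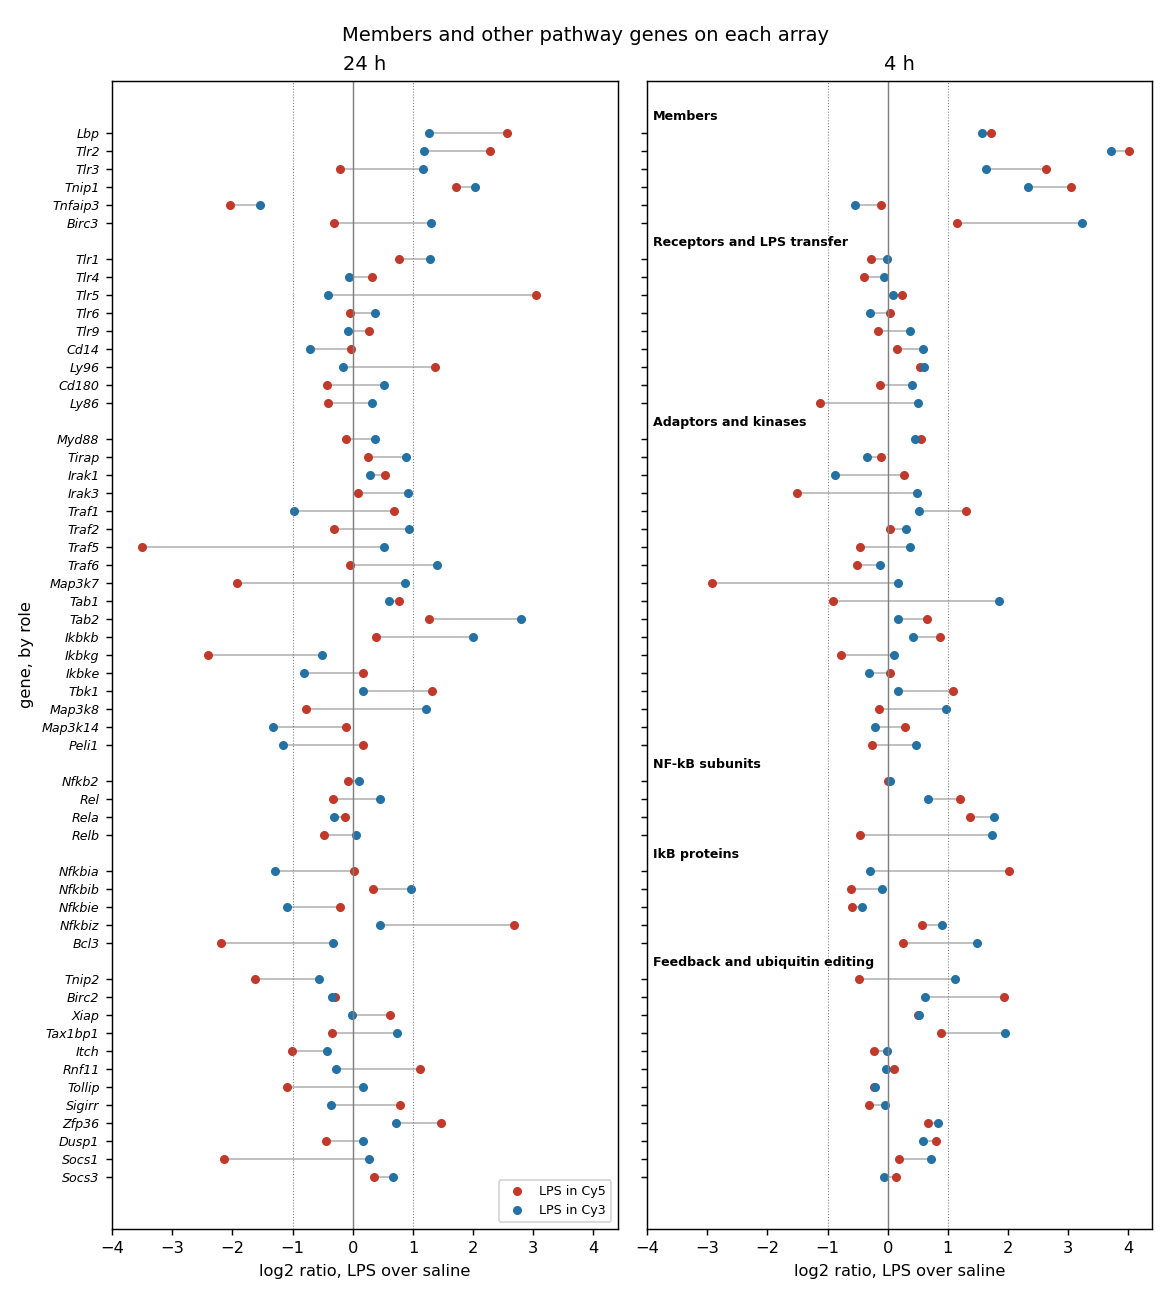
Gene-level log2 LPS over saline (x axis) of the 6 genes and of 48 other pathway genes grouped by role (y axis) at 24 h (left) and 4 h (right), with red points for LPS in Cy5, blue for LPS in Cy3, a grey line joining the 2 arrays and dotted lines at 2-fold. Outside the 6 genes, Tab2 at 24 h and Rela at 4 h have both points beyond the same dotted line.

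Markers of other cells that could carry these transcripts were set beside them. Of 10 monocyte and macrophage markers, 0 were called at either time, and their median was -0.55 at 24 h and -0.20 at 4 h, with single genes between -1.52 and 0.15 at 24 h and between -0.69 and 0.38 at 4 h. Of 6 hepatocyte markers, the main source of circulating Lbp being liver, 0 were called higher at either time and Apoa2 was called lower at 4 h, with a median of 0.15 at 24 h and 0.05 at 4 h. Of 10 neutrophil markers, S100a8 at 2.59 ± 1.17 and S100a9 at 1.55 ± 0.08 were called higher and Ngp at -1.62 ± 0.82 lower at 24 h, and 0 were called at 4 h. The median over the 10 neutrophil markers was -0.10 at 24 h and -0.19 at 4 h. The part of neutrophil RNA in the 24 h values was not tested. Of 10 endothelial markers measured, 2, Eng and Kdr, were called higher at 24 h and lower at 4 h. Eng stood at 3.91 ± 0.85 at 24 h and -1.87 ± 0.84 at 4 h. Kdr stood at 2.21 ± 0.48 and -1.89 ± 0.75. Cldn5 was called higher at 4 h. The median over the 10 endothelial markers was 0.29 at 24 h and -0.06 at 4 h. Of 10 cardiomyocyte markers, 1, Ryr2, was called lower at 24 h, at -1.40 ± 0.11, and 0 were called at 4 h. The 5 fibroblast markers and the 6 smooth muscle and pericyte markers held 0 calls at either time. Beside these counts stand the shares of all genes, 3.48% called higher and 3.52% lower at 24 h and 2.25% and 0.997% at 4 h. At those shares lists of 5 to 10 genes hold few calls or none, so a count of 0 shows nothing about a cell type.

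The genes nearest to each of the 6 in their log2 ratios over the 4 arrays were sought among 4058 genes whose spots lay within 0.5 log2 units of their mean on every array, by Euclidean distance. Nearest to Tlr2 were Casp4 (distance of 0.82 log2 units), Cxcl1 (0.98) and Cmpk2 (1.08), and nearest to Tnip1 were Stat2 (0.54), H3f3b (0.54) and Prnp (1.11). Casp4 stood at 2.60 and 1.94 at 24 h and at 4.02 and 3.80 at 4 h with LPS in Cy5 and Cy3. Lbp was nearest to Rps19 (0.53), Id3 (0.64) and Npm1 (0.81), Tlr3 to Pdgfa (0.82), Ctnnb1 (0.84) and Acot10 (1.01), and Birc3 to Gbp3 (0.89), Irf1 (0.95) and H3c7 (0.97). Gbp3, like Birc3, was higher with LPS in Cy3 at both times, at 0.51 and 1.31 at 24 h and 1.23 and 2.91 at 4 h. Tnfaip3 had the closest neighbours, Mrpl40 (0.19), Tlx2 (0.25) and Psg19 (0.32). The distances describe 4 arrays that share RNA and dyes.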

How the data were processed

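The authors deposited log2 ratios of 2-colour oligonucleotide arrays, 32448 spots on each of 4 arrays, with a median of 3e-07 per array and a spot SD of 0.98 to 1.59. Background correction, dye normalization, spot filters and direction of the ratio are not given in the labels. No intensities were used, and precision is limited by the number of arrays. The sign of the LPS-in-Cy3 array was turned, adjacent spots (the same symbol in all 16224 pairs) were averaged, followed by a gene's oligonucleotides. The median over genes was then subtracted from each array, which moved values by at most 0.06. Symbols came from the platform annotation, and the 6 gene identifiers matched the RefSeq table of GRCm38.p6.

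The 6 genes and the lists were chosen with earlier results of these data known. Named were the 6 genes, the pathway genes called at either time, 10 further pathway genes listed with them where measured, and the 3 nearest genes of each member; Birc2 was one of the 10, and markers were named where called. The calling code was run on simulated data whose changes were large against their noise. That checks the code's arithmetic and not how often calls on these arrays are right. Other normalizations, spot rules and single arrays were tried as alternatives. Python 3.11.15, numpy 2.4.6, pandas 2.3.3 and matplotlib 3.10.9 were used.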

Additional observations from a re-analysis of the deposited data

Results flagged for a closer look

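Among the genes named, 8 had both arrays of one time above 0 and both of the other below 0. The difference between the times was not tested for any of them. The rule asks only for signs and the share of all genes meeting it was not counted, so nothing is read from the number. Some met it by a value close to 0. With LPS in Cy5 at 24 h Cldn5 was at -0.06 and Cd14 at -0.03. With LPS in Cy3 at 4 h S100a8 was at -0.02 and S100a9 at -0.04. Eng stood at 3.91 ± 0.85 at 24 h and -1.87 ± 0.84 at 4 h, a difference of 5.77. Kdr stood at 2.21 ± 0.48 at 24 h and -1.89 ± 0.75 at 4 h, a difference of 4.10. Cldn5, the third endothelial marker here, stood at -0.66 ± 0.86 at 24 h and 1.29 ± 0.10 at 4 h, a difference of -1.96. The median of the 10 endothelial markers was 0.29 at 24 h and -0.06 at 4 h. The neutrophil marker S100a8 stood at 2.59 ± 1.17 at 24 h and -0.13 ± 0.16 at 4 h, a difference of 2.71, and S100a9 at 1.55 ± 0.08 at 24 h and -0.32 ± 0.40 at 4 h, a difference of 1.87. Ngp of the same list was called lower at 24 h, at -1.62 ± 0.82, and the median of the 10 neutrophil markers was then -0.10. Rela stood at -0.22 ± 0.14 at 24 h and 1.57 ± 0.28 at 4 h, a difference of -1.79. Birc2 stood at -0.32 ± 0.03 at 24 h and 1.28 ± 0.93 at 4 h, a difference of -1.60. Cd14 stood at -0.36 ± 0.48 at 24 h and 0.37 ± 0.30 at 4 h, a difference of -0.73, with spots on both sides of 0 on the arrays with LPS in Cy5. None of Lbp, Tlr2, Tlr3, Tnip1, Tnfaip3 and Birc3 showed this pattern.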

How the results depend on the processing

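Taking the median over spots, leaving out ratios of exactly 1 and leaving out the centring each kept all 18 values of the 6 genes (log2 ratios at 24 h and 4 h and their difference) within 1 SD of the arrays, and kept their calls. Scaling the arrays to one median absolute deviation moved 8 of the 18 by more than that, and quantile normalization 1. Both ended the call of Tlr2 at 24 h, since the array with LPS in Cy3 came to 0.94 in each. The means of the 2 arrays were then 1.36 and 1.82. Without turning any array, 0 of the 6 genes were called at 24 h or at 4 h, and 0 pathway genes, by construction of the sign: the Tlr2 difference became 0.40, Tnip1 at 24 h -0.16 and Birc3 at 4 h -1.04. The pathway count of 1 at 24 h became 0 with scaled arrays and 0 where every spot had to be 2-fold. With 1 array alone it was 9 to 15 at 24 h and 6 to 9 at 4 h, since a single array then decides. Over all genes, 362 were called at 4 h, 69.3% of them higher, and 561 after quantile normalization, 58.5% of them higher. At 24 h 780 were called, and 424 with scaled arrays. Asking for every spot to be 2-fold after centring was an alternative chosen after seeing the data. It left 2 of the 6 genes called higher and 1 lower at 24 h, beside 1.87% and 1.78% of all genes. At 4 h it left 4 called higher, beside 1.25% of all genes, and nothing is read from these counts. No paired analysis was possible because the arrays of a time are dye reversals that count as 1 replicate. Signal over background is not known, which limits what single spots show.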
